A study of Mus musculus with 2 samples.

Results

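The microRNA (miRNA) genes of the mouse catalogue numbered Mir6896 to Mir7119 were described in newborn bladder. They were taken by symbol alone, whatever their level, as every gene of the deposited tables whose GENCODE symbol is Mir with a number in that range, with any suffix. This gave 181 genes of the 1973 in the tables (9.17%), covering 179 of the 224 numbers. Small RNA was sequenced from the total RNA of 2 animals, 1 library each, and the labels restrict its size to under 30 nucleotides. Both animals were pups of strain B6NCrl at postnatal day 0, labelled pup 1 and pup 2 of the same pregnancy, and each library came from 1 whole bladder. The labels name no engineered allele and no treatment, and sex was not collected. There is therefore 1 group of 2 littermates and no contrast between conditions.

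Most miRNAs are cut in the nucleus from a long transcript by the enzyme Drosha, exported as a hairpin and cut again by Dicer. The resulting short strand of each arm, 5p or 3p, can be loaded into an Argonaute protein, where its seed near the 5′ end pairs with target mRNAs. A mirtron takes another route: the hairpin is an intron or the end of one, so that splicing makes at least 1 of its ends in place of Drosha. In a conventional mirtron the intron is short and the hairpin reaches from its first to its last base; in a tailed mirtron the hairpin abuts one intron end and a tail of intron sequence lies beyond the other. Mammalian introns open with GU and close with a pyrimidine-rich stretch followed by AG, letters that a mirtron hairpin inherits. The level of a mirtron is known to depend on transcription of its host gene as well as on folding and cutting of the intron.

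Hairpins of 6 members are shown first because they include those with the most counts and both forms of mirtron, with Mir877, a longer-known conventional mirtron, for comparison. The sequences are RefSeq's on GRCm38.p6, written 5′ to 3′ on the gene's own strand, with the annotated mature arms in capitals. Mir6945 lies at chr13:55507625-55507692 on the minus strand, at the 3′ end of intron 5 of Pdlim7. Mir6903 lies at chr1:133726558-133726645 on the minus strand, at the 3′ end of intron 13 of Atp2b4, with its last 6 bases in the next exon. Mir7083 lies at chr9:21809941-21810000 on the minus strand, at the 3′ end of intron 38 of Dock6. Mir6963 lies at chr15:103350455-103350525 on the minus strand, at the 3′ end of intron 22 of Itga5. Mir6944 at chr13:55477681-55477776 on the minus strand is the whole of intron 9 of Dbn1. Mir7018 at chr4:137538286-137538370 on the plus strand is the whole of intron 43 of Hspg2. Mir877 at chr17:35960730-35960814 on the minus strand is the whole of intron 12 of Abcf1.
Mir6945: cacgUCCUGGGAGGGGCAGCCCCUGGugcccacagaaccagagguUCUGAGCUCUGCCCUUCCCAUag
Mir6903: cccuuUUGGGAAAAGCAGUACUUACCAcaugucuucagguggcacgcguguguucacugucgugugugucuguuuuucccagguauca
Mir7083: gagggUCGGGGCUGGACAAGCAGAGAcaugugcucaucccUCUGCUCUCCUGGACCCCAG
Mir6963: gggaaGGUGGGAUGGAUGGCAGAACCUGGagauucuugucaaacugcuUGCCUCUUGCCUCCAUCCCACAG
Mir6944: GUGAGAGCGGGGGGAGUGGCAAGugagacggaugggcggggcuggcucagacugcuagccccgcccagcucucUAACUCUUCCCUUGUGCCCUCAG
Mir7018: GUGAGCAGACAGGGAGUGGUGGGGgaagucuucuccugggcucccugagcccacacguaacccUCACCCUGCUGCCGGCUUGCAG
Mir877: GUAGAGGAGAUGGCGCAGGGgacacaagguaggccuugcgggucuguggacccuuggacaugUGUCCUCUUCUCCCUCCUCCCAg
The hairpins of Mir6944, Mir7018 and Mir877 open with the GU and close with the AG of their introns. Those of Mir6945, Mir7083 and Mir6963 close with AG but open inside the intron. Mir6903 is the exception at the 3′ side, since its last letters belong to the exon and 1 arm is annotated.

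The tables held 7460621 sense-strand gene counts for pup 1 and 3636650 for pup 2, a ratio of 2.05. Levels are counts scaled to 1000000 of these totals (CPM), so 1 count was worth 0.134 CPM in pup 1 and 0.275 CPM in pup 2. A count of 0 allows up to 0.402 CPM and 0.825 CPM (3 counts of the total; counting error only). A mature miRNA is read whole, so levels were not divided by hairpin length. The labelled tissue was checked with marker miRNAs: the smooth muscle pair Mir143 and Mir145a summed to 538291 CPM (pup 1) and 535290 CPM (pup 2), and the 7 epithelial genes of the miR-200 group with Mir205 and Mir203 to 16684 and 16284 CPM. The 5 Mir124a and Mir9 genes with a row, which mark neurons, had 0 counts, although they have near-identical copies whose reads the tables list apart from the genes. Markers of other tissues were not all silent. Mir122, of liver, had 111.8 CPM (pup 1) and 31.6 CPM (pup 2). The 6 genes of skeletal and cardiac muscle with a row summed to 103.7 and 83.0 CPM. Of this, Mir208b gave 73.3 and 52.5 CPM and Mir208a 18.4 and 22.8 CPM. Mir1a-1, Mir133a-1 and Mir133a-2, which have near-identical copies too, had 0 to 5 counts in a pup, so the sum can miss their reads. The source of these counts was not tested.

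All 181 members together were a trace of the library. They held 357 sense counts in pup 1 and 175 in pup 2, that is 47.9 CPM (exact 95% binomial (Clopper-Pearson) interval of the share 43.0 to 53.1) and 48.1 CPM (41.3 to 55.8), with a mean of 47.99 ± 0.191 CPM (SD, n = 2). The summed levels of the pups thus lay within each other's counting interval. They were 0.00479% and 0.00481% of gene counts, and the mean level of Mir143 alone was 10937 times the members' sum. The 4 most abundant members held 25.4% of the 532 member counts, the first 9 held 39.1% and the first 25 held 59.6%.

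The members' counts were spread thinly over many genes. In pup 1, 101 members (55.8%) had at least 1 sense count, of which 34 had exactly 1, 62 had 2 to 9 and 5 had 10 or more. In pup 2, 72 members (39.8%) had a count, of which 36 had 1, 33 had 2 to 9 and 3 had 10 or more. Thinned by formula to the depth of pup 2, pup 1 would show 73.5 members, close to the 72 of pup 2. Over both pups 118 members (65.2%) had a count, against 33.9% of all genes in the tables. Of these, 55 had a count in each pup, 46 in pup 1 alone with at most 8 counts, and 17 in pup 2 alone with at most 3. The other 63 members had none. Under a detection rule of 1 CPM and 3 counts in both pups, 7 members (3.87%) were detected, against 17.0% of all genes. The background over all genes includes 852 genes with other symbols, mostly Gm names, of which 4.34% had a count in pup 1. Among the 861 other genes with a Mir number, 56.8% had a count in pup 1, 51.2% in pup 2 and 58.8% in either, and 36.9% were detected. For members the shares were 55.8%, 39.8%, 65.2% and 3.87%, a comparison made with no test. The median level in the mean of the pups was 0.134 CPM for members and 0 for all genes.

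Of the 465 genes numbered Mir1 to Mir999, 71.4% had a count in pup 1 and 58.1% were detected, at a mean of 2007 CPM per gene. The 156 genes from Mir1000 to Mir4999 gave 53.2%, 21.8% and 9.66 CPM. The 148 genes from Mir5000 to Mir6895 gave 23.6%, 4.05% and 0.670 CPM. Members gave 55.8%, 3.87% and 0.265 CPM, and the 92 genes above Mir7119 gave 42.4%, 8.70% and 0.491 CPM. A count in pup 1 was therefore about as frequent among members as among Mir1000 to Mir4999, at a lower mean level per gene. The mean of Mir5000 to Mir6895 rests on Mir5099, without which it was 0.207 CPM, below the 0.247 CPM of the members without Mir6945. Without Mir143 the mean of Mir1 to Mir999 was 880 CPM. For Mir1000 to Mir4999 without Mir1193 it was 6.34 CPM, and above Mir7119 without Mir8112 it was 0.415 CPM. Median levels were 0.134 CPM for members and for Mir1000 to Mir4999, and 0 for Mir5000 to Mir6895 and for genes above Mir7119. The highest member mean was 3.46 CPM and no member reached 10 CPM, a level passed by 226 genes of Mir1 to Mir999. These are descriptions of 1 set of libraries, with no test between number ranges.

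**Figure D1:**
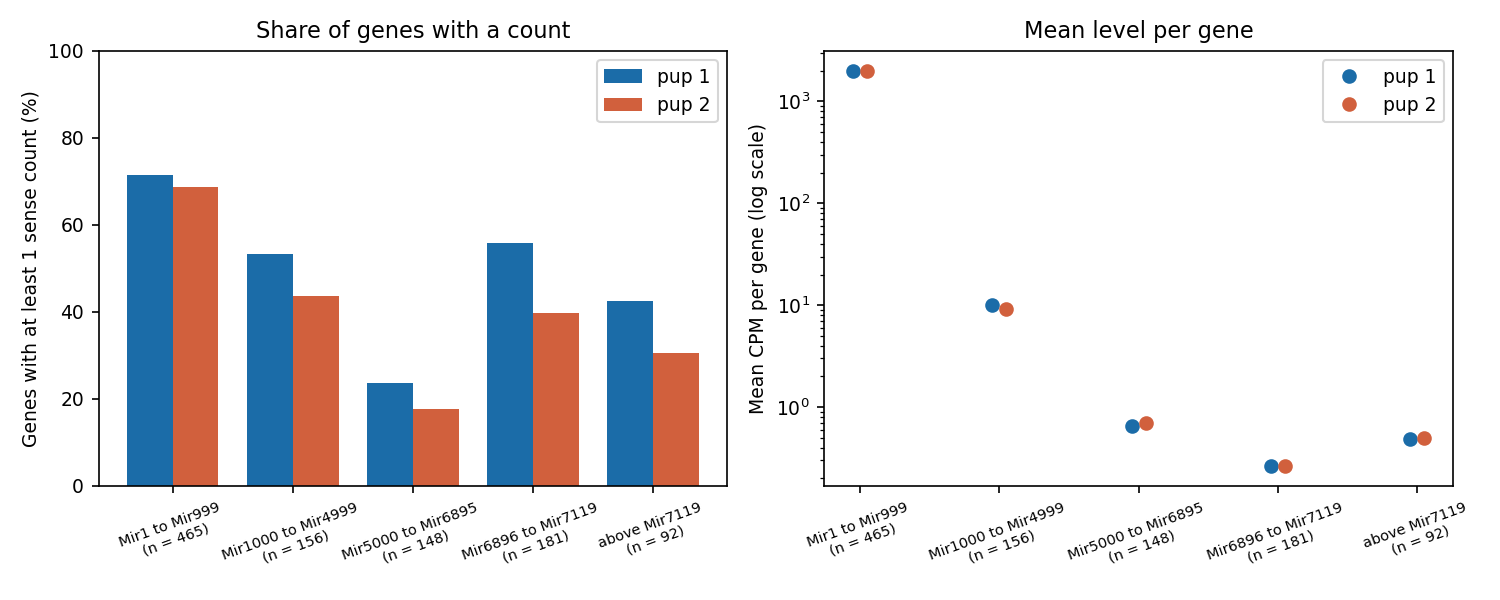
Share of genes with at least 1 sense count (left, percent, bars) and mean level per gene (right, CPM, log scale, points) for 5 ranges of miRNA gene numbers in pup 1 and pup 2. The 181 members had a count in 55.8% and 39.8% of genes at a mean of 0.265 CPM per gene; the 0.670 CPM of Mir5000 to Mir6895 falls to 0.207 CPM without Mir5099.

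The 25 members with the highest means are given by what their hosts do, a grouping made by hand for the description alone, beginning with the cytoskeleton. Mir6945, in Pdlim7, which encodes a PDZ and LIM domain protein that binds actin filaments, had 27 counts in pup 1 and 12 in pup 2, or 3.62 and 3.30 CPM (mean 3.46 ± 0.226, SD, n = 2), rank 286 of all genes. The pups' values lay close together. Mir6944, in Dbn1, which encodes the actin-binding protein drebrin, had 14 and 13 counts, or 1.88 and 3.57 CPM (mean 2.73 ± 1.20). Mir6935, in Actg1, the gene of cytoplasmic gamma-actin, had 16 and 2 counts, or 2.14 and 0.550 CPM (mean 1.35 ± 1.13), and so was not detected under the rule although its pup 1 level was that of Mir7083. Mir7017, in Wasf2, whose protein drives branched actin growth, had 6 and 2 counts, and Mir6997, in the spectrin gene Sptan1, had 2 and 3. Mir7032, in Hip1r, whose protein links endocytic pits to actin, had 8 counts in pup 1 and 0 in pup 2.

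Members in genes of the cell surface, the matrix and signalling included 4 of the 9 with at least 10 counts over both pups. Mir6903, in Atp2b4, which encodes a calcium pump of the plasma membrane, had 32 and 8 counts, or 4.29 and 2.20 CPM (mean 3.24 ± 1.48); the 32 counts were the most of any member in either pup. Mir7083, in Dock6, an exchange factor for small GTPases, had 16 and 13 counts, or 2.14 and 3.57 CPM (mean 2.86 ± 1.01). Mir7018, in Hspg2, the gene of the basement membrane proteoglycan perlecan, had 9 and 8 counts, or 1.21 and 2.20 CPM (mean 1.70 ± 0.703). These 3 were detected, with the levels of Mir7083 and Mir7018 higher in pup 2 and that of Mir6903 higher in pup 1. Mir6963, in Itga5, the alpha chain of the fibronectin receptor, had 8 and 4 counts, 1.07 and 1.10 CPM, and was detected too. Mir6983, in Csf1r, the receptor that macrophages need, had 1 and 6 counts, 0.134 and 1.65 CPM, the reverse of the depths. Mir7007, in the mast cell protease gene Cpa3, had 2 and 3 counts.

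Members in genes for protein and RNA handling had means of 1.43 CPM or less. Mir6897, in Uggt1, a sensor of glycoprotein folding in the endoplasmic reticulum, had 8 and 4 counts, 1.07 and 1.10 CPM, the same as Mir6963, and was detected. Mir6951, in Azin1, a regulator of polyamine synthesis, had 7 and 7 counts, 0.938 and 1.92 CPM. It missed detection by its level in pup 1. Mir6975, in the RNA helicase gene Ddx39b, had 6 and 3 counts, Mir6971, in the exosome helicase gene Skiv2l, 7 and 2, and Mir6988, in the ubiquitin ligase gene Syvn1, 5 and 3. Mir7033, in the nuclear pore gene Pom121, had 2 and 3 counts, and Mir7036, in Srrt, a partner of the nuclear cap-binding complex, 1 and 3. Mir7064, in the tRNA synthetase gene Cars, had 8 counts in pup 1 and 0 in pup 2.

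The rest of the 25 most abundant members lay in genes of metabolism, transcription and growth. Mir6900, in the respiratory chain gene Ndufa10, had 5 and 3 counts, and Mir7051, in the electron transfer gene Etfb, 6 and 1. Mir6990, in the nuclear receptor gene Esrra, had 7 and 1. Mir7089, in the cell cycle phosphatase gene Cdc25a, had 2 and 3, and Mir6909, in the lipid phosphatase gene Plpp2, 3 and 2. At 0.476 CPM, Mir6909 was the lowest of the 25, tied with Mir6928 and Mir6985 (3 and 2 counts each), which come after it by number, and still ranked 414 of 1973, since 1305 genes had no count. Neighbours in this order were not separable: the counting intervals of every adjacent pair of the 25 overlapped in both pups, as the plot of member levels shows.

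**Figure D2:**
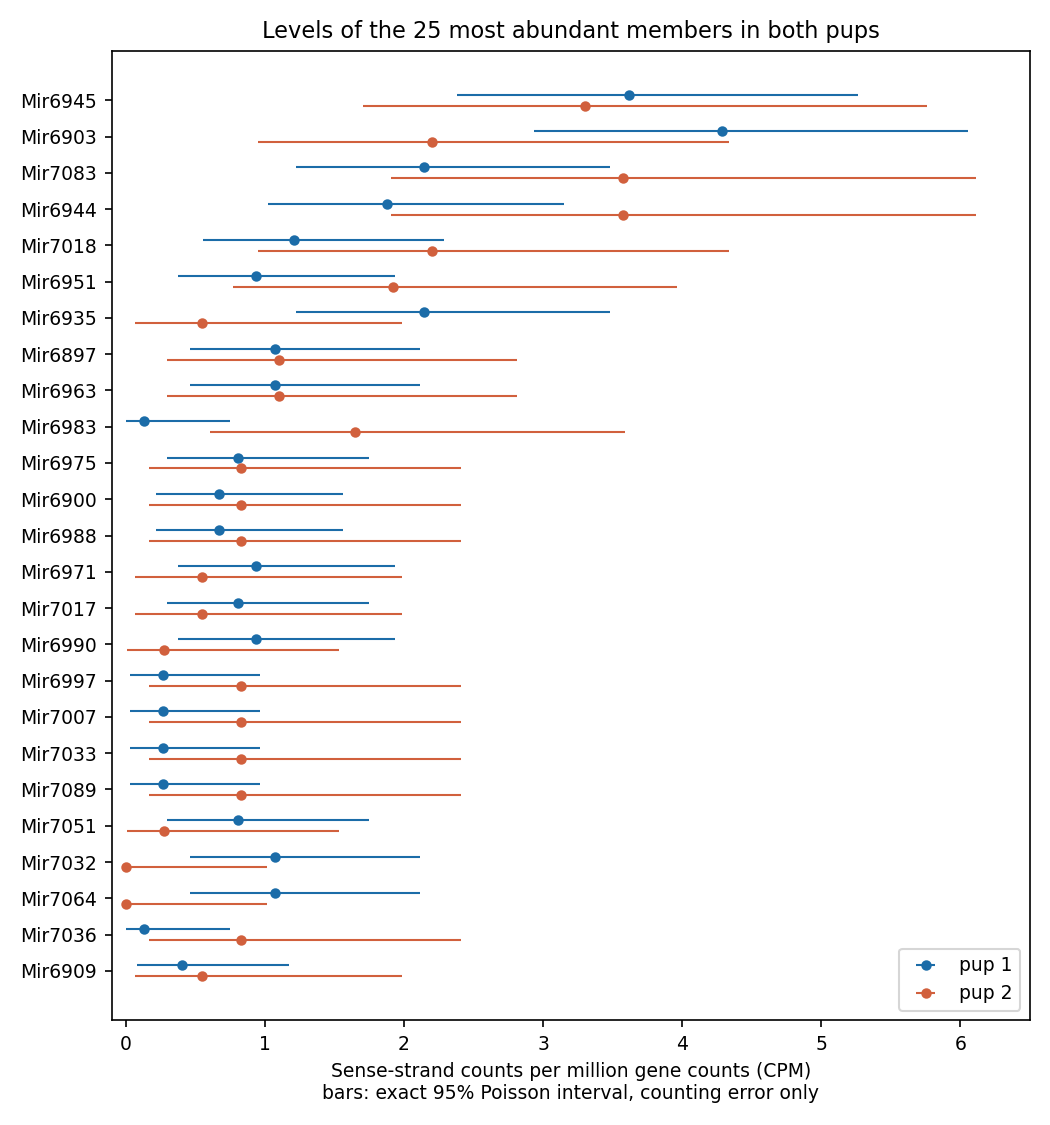
Levels (CPM, linear axis) of the 25 most abundant members in pup 1 and pup 2, ordered by mean, with exact 95% Poisson intervals that cover counting error alone. Mir6945 lies at 3.62 and 3.30 CPM, and the intervals of the pups overlap for every member drawn.

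Members were also grouped by what their hosts are known for, in lists drawn up after the values were known and given with no test. Of 12 members in hosts of blood and immune cells, 3 had a count, those in Csf1r, Cpa3 and Adam8, with 3 and 11 counts in all (0.402 and 3.02 CPM); over all members 118 of 181 (65.2%) had one. The 3 members in the brain genes Ncan, Camk2a and Ptpn5 had 0 counts, as had the 2 in the pancreas genes Clps and Ctrb1. These lists are not complete, and other hosts could be placed in them. Mir6944 in Dbn1, with 14 and 13 counts, and Mir7031 in Sh2b3, with 2 and 1, were in none of them. Whether counts followed the tissue of the host was not tested. Host mRNA was not measured here. In whole bladder, fewer cells of a type and less RNA per cell cannot be told apart.

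The label of the set as mirtrons was compared with gene models, those of GENCODE M21 on GRCm38 (mm10). Every member lay inside a gene on its own strand, 180 of 181 in a protein-coding gene and Mir7094-2 in the immunoglobulin segment Ighv1-5. They had 177 distinct hosts on 19 chromosomes, and Arap3, Cmip, Skiv2l and Srebf1 each held 2. Within 10 bases, 179 members (98.9%) lay at an end of an intron, against 47 of the 1713 other genes with a symbol (2.74%). Of the members, 158 (87.3%) lay at the 3′ end alone, 18 (9.94%) reached both ends and 3 lay at the 5′ end alone. With 20 bases allowed in place of 10, 32 reached both ends. The 2 that were at no intron end were Mir7036b and Mir7025. Mir7036b lies 237 bases inside a 24255-base intron of Add1 and also overlaps an annotated exon on its strand. Mir7025 overlaps an exon of Pdgfra. By placement the set was therefore mostly of the tailed kind with the tail on the 5′ side. Whether intron position was used when these entries were catalogued was not known here. Placement therefore describes the set and is no independent support for the label. Processing by splicing was not measured.

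The fit to the splice site was exact for most. Of the 158 at the 3′ end, 151 ended on the last base of the intron and 7 ran 1 to 7 bases into the exon. Of the 18 at both ends, 14 matched the intron base for base. Introns of the both-end members were 67 to 137 nucleotides long (median 84), and those of the 3′-end members 77 to 36269 (median 545). The longest held Mir6899, in the transcription factor gene Klf7, with 3 counts in pup 1 and 0 in pup 2. Hairpins were 52 to 137 nucleotides long, with a median of 66.

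**Figure D3:**
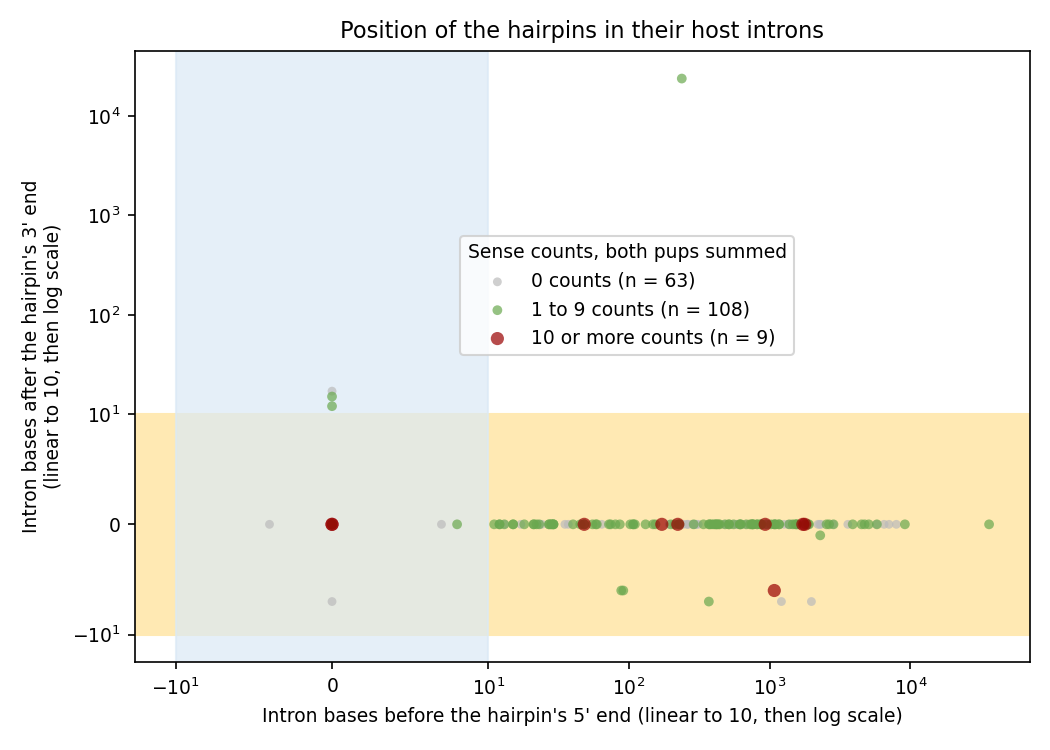
Intron bases before the 5′ end (x axis) and after the 3′ end (y axis) of each member's hairpin, both linear to 10 and logarithmic beyond, for 180 members in an intron, coloured by summed counts. Shaded bands mark 10 bases from an intron end; the row at 0 on the y axis holds the hairpins that end on the last intron base, and negative values run into an exon.

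Counts were found in both kinds. Of the 18 both-end members, 9 had a count in either pup, with 46 and 23 counts (6.17 and 6.32 CPM). Of the 158 3′-end members, 105 had one, with 306 and 149 counts (41.0 and 41.0 CPM), and of the 3 5′-end members 2 had one, Mir6936 in Sirt7 with 1 and 1 and Mir6977 in Ptprs with 2 and 0. Mir6944 and Mir7018 together held 23 of the both-end counts in pup 1 and 21 in pup 2. Beside them, Mir7032 in Hip1r had 8 counts in pup 1 and 0 in pup 2, Mir7068 in Cherp 6 and 0, Mir7091 in Dnase1l1 4 and 0, and Mir7070 in Fbxw9 2 and 1. The both-end members without a count included Mir6923, which is a whole intron of Myh3, the gene of embryonic skeletal myosin.

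Some members overlap an annotated exon on their strand, of another transcript or, where the hairpin runs past the splice site, of the same one, and there a read of the hairpin and a fragment of a spliced mRNA cannot be told apart in a table of counts. There were 41 such members, with 127 of the 357 counts in pup 1 and 42 of the 175 in pup 2 (17.0 and 11.5 CPM). Mir6945, Mir6903, Mir6935, Mir6990, Mir7051 and Mir7036 were among the 25 most abundant. The 140 members that overlap none held 230 and 133 counts (30.8 and 36.6 CPM), and 88 of them (62.9%) had a count in either pup, against 30 of the 41 (73.2%). For these 140, a read of the hairpin and a fragment of the host's intron cannot be told apart by counts per gene either. Among the 3′-end members, intron length was a median of 479 nucleotides in the 105 with a count and 705 in the 53 without, with a hairpin median of 65 in both groups. By intron length, 17 of 24 had a count in introns of up to 100 nucleotides, 27 of 31 in those above 100 and up to 300, 31 of 50 in those above 300 and up to 1000, and 30 of 53 in longer ones, so the share did not fall steadily with length. These shares are descriptions, since members are not replicates of a condition.

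The letters of the hairpins carried the marks of splice sites. An AG end follows from placement on the last intron base, so it is no separate support for the mirtron label. RefSeq held a hairpin for 164 members (90.6%), all at the position GENCODE gives. Of these, 152 (92.7%) ended in AG, against 59 of 705 other hairpins (8.37%). GU at the first 2 bases was found in 28 (17.1%), and in 11 of the 15 both-end members with a hairpin, of which 14 also ended in AG. Among the 144 3′-end hairpins, 14 began with GU and 138 ended in AG. GC content was a median of 57.8% (39.1% to 81.5%), against 50.6% in the other hairpins. Members with a count had a median of 59.4% (n = 106) and those without 55.9% (n = 58).

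The arms differed from each other in base makeup, as mature sequences of 4 leading members show, with the seed (bases 2 to 8 from the 5′ end) in capitals.
miR-6945-5p: uCCUGGGAggggcagccccugg
miR-6945-3p: uCUGAGCUcugcccuucccau
miR-7083-5p: uCGGGGCUggacaagcagaga
miR-7083-3p: uCUGCUCUccuggaccccag
miR-6944-5p: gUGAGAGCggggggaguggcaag
miR-6944-3p: uAACUCUUcccuugugcccucag
miR-7018-5p: gUGAGCAGacagggaguggugggg
miR-7018-3p: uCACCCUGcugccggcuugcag
In miR-6944, guanine was 60.9% of the 5p arm and 13.0% of the 3p arm. Across the 160 annotated 5p sequences of members, guanine was 45.4% of all bases pooled, against 29.1% in 458 5p sequences of other genes. Across the 158 3p sequences, cytosine and uracil together were 71.6%, against 53.4% in 464 others. The 3p arm is thus the pyrimidine-rich one and the 5p arm the guanine-rich one. AG closed 124 of the members' 3p sequences (78.5%) and 10 of their 5p sequences (6.25%); in other genes the shares were 10.8% and 5.68%. Of 153 3p sequences at a 3′ intron end, 122 (79.7%) ended on the last intron base and 147 within 3 bases of it, and of 19 5p sequences at a 5′ intron end 15 began on the first. These figures describe annotated arms; the tables give 1 count per gene and do not say which arm, or which bases, were read.

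**Figure D4:**
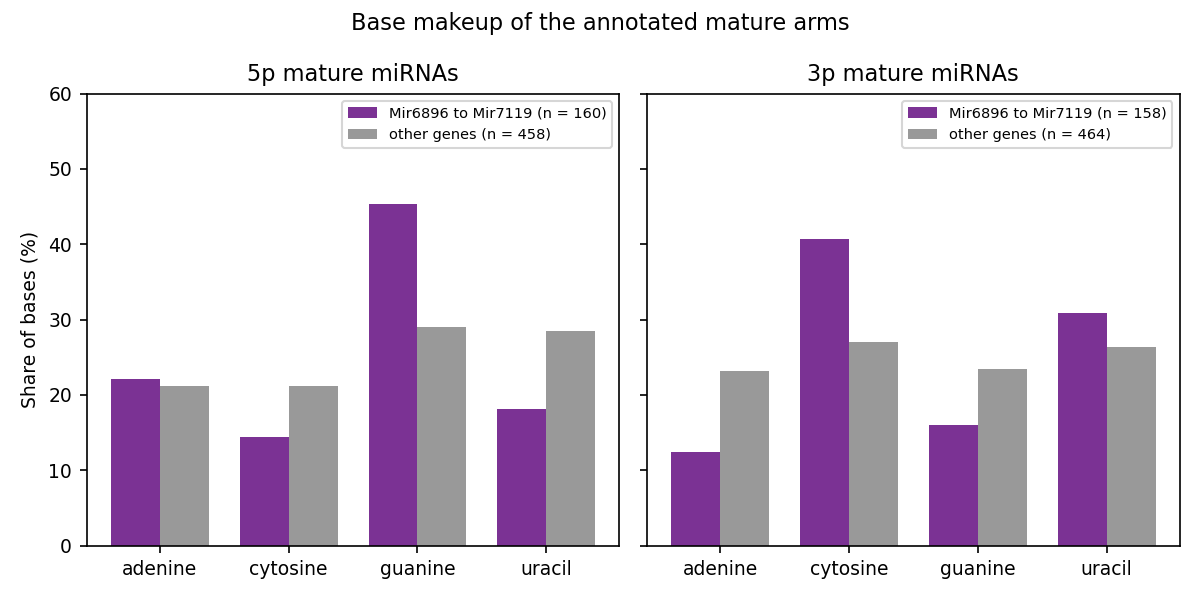
Share of each base (percent of all bases pooled) in annotated mature sequences of the 5p arm (left) and 3p arm (right), for members and for other genes of the tables. Guanine is 45.4% of member 5p arms against 29.1%, and member 3p arms are richest in cytosine and uracil.

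Seeds guide the choice of targets, and most of the members' seeds were found in 1 member alone. The 318 mature sequences had 292 distinct seeds, of which 245 (83.9%) occurred in no other member and no other gene of the tables with a sequence, and 21 were shared by 2 or 3 members, involving 46 members. The seeds with the most counts behind them are shown by the sequences that share them, first CACCCUG, then CUGAGCU, then CCAGGGU.
miR-7018-3p: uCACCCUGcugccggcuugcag
miR-7023-3p: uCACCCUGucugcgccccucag
miR-7068-3p: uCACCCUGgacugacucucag
miR-6945-3p: uCUGAGCUcugcccuucccau
miR-6927-3p: cCUGAGCUggcuccccugcag
miR-6990-5p: cCCAGGGUgagucagggcucu
miR-7032-5p: cCCAGGGUgguccccgagaggguggu
The 3 genes with CACCCUG had 15 counts in pup 1 and 8 in pup 2, of which Mir7018 gave 9 and 8, Mir7068 6 and 0, and Mir7023 none. The pair with CUGAGCU had 27 and 12 counts, all from Mir6945, and the pair with CCAGGGU 15 and 1. Of the 292 seeds, 33 (11.3%) also occurred in genes outside the set, 2 of them in a gene at 1000 CPM or more. Mir6932 and Mir7039 share CUGUUCU with the 3p arm of Mir26b (22050 CPM over both arms), and Mir6966 shares UCGGGGA with the 5p arm of Mir542 (1189 CPM over both arms). No member hairpin of the 164 shared a run of 20 bases with another hairpin of the tables.

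On the strand opposite to the genes, members had 0 counts in both pups, which allows a share of up to 0.564% of their 532 counts. Of 269 other genes with up to 40 summed counts, 14 had opposite-strand counts, 22 of 2023 (1.09%). Over all genes the share was 3.17% in pup 1 and 3.18% in pup 2. The members' counts were thus all on the annotated strand, that of the host gene.

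The pups were compared for the 9 members with at least 10 counts summed, gene by gene, with an exact binomial test (two-sided); p-values were adjusted after Benjamini and Hochberg over every gene tested. The test sets 2 libraries against read counting noise and says nothing of a condition. None of the 9 passed an adjusted p of 0.05, and 0 had an unadjusted p under it, against 117 of 362 genes (32.3%) that passed. Of the 79 genes tested with no more counts than the highest member, 3 passed (3.80%). An exact test in edgeR, which adds a common dispersion, called 0 of the 9, with 0 at an unadjusted p under 0.05, and 5 of all genes. Its dispersion was estimated from these same 2 libraries taken as 1 group. Differences between the pups therefore enter its noise, and it is no independent check. The largest differences were those of Mir6935, with a log2 ratio of pup 2 over pup 1 of -1.66 (95% counting interval -3.58 to 0.26; exact binomial test, adjusted p = 0.177), and of Mir6951, at 1.06 (-0.40 to 2.52; exact binomial test, adjusted p = 0.320). Mir6944 was at 0.96 (-0.11 to 2.03) and Mir6903 at -0.87 (-1.96 to 0.22). Mir6945 was at -0.08 (-1.04 to 0.89), a sign that turned with a prior count of 2. The intervals leave room for differences of more than 2-fold in each of the 9 members, so a missed threshold does not show that the pups were alike.

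Mir6983, in Csf1r, had too few counts for that comparison, with 1 in pup 1 and 6 in pup 2. With a minimum of 5 counts it passed the exact binomial test (log2 ratio 3.16, adjusted p = 0.0243), as the 1 of 31 members tested, where 116 of 431 genes (26.9%) passed. With no minimum its adjusted p was 0.0400, and it was the 1 of 118 members to pass, against 118 of 668 genes (17.7%). In edgeR's exact test, added after these values were seen, its adjusted p was 0.463 and 0.728, with a dispersion that holds the pups' own differences. Beside Mir6983, all 4 blood cell markers had counts and summed to 1071 CPM (pup 1) and 2229 CPM (pup 2). Mir223, of myeloid cells, was at 396.2 and 1274 CPM. The others differed less, with Mir144 at 288.3 and 471.0 CPM, Mir451a at 357.1 and 452.3, and Mir150 at 29.1 and 31.9. Their part in the difference was not tested.

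Longer-known mirtrons of the same tables were more abundant than most members. Mir1981, in Marc2, had 177 and 83 counts (mean 23.3 ± 0.637 CPM, SD, n = 2), and Mir877, in the ABC protein gene Abcf1, 117 and 65 (16.8 ± 1.55 CPM). Mir702, in the collagen-modifying enzyme gene Plod3, had 41 and 33 (7.28 ± 2.53 CPM), and Mir1224, in Vwa5b2, 19 and 9 (2.51 ± 0.0508 CPM). All 4 reached both ends of their introns within 10 bases. The hairpin of Mir702 runs past the first intron base into the exon, so its counts carry the same limit as those of members that overlap an exon. Mir1225 and Mir1226, also listed as longer-known mirtrons, had no row. Their sum was 47.4 CPM (pup 1) and 52.2 CPM (pup 2), beside 47.9 and 48.1 CPM for all 181 members. The highest member thus lay between Mir1224 and Mir702.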

How the data were processed

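Each library's table, as deposited by the authors, gives raw whole-number counts for every annotated miRNA gene. Per the labels the assembly was mm10, and per the README text deposited with the tables the genes were those of GENCODE M4. The aligner was not given in the sources used here, nor was the counter. The columns carry no header. From their values the columns were read as counts of both strands, of the sense strand and of the opposite strand. Lines of unassigned reads stayed out, among them reads mapped to several places (22.7% of reads in pup 1 and 24.8% in pup 2).

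Symbols, positions and introns came from GENCODE M21 (1894 of 1973 IDs matched) and sequences from RefSeq. Members and lists were chosen with earlier results of these data known. Named members are the 25 with the highest mean CPM (ties by summed counts, then by number; 2 members tied with the last are outside), those detected (1 CPM and 3 counts in both pups), and those with 10 opposite-strand counts or past the between-pup test. The host lists and the members that illustrate seeds, placement or a call under another setting were chosen after their values were seen.

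The 2 pups are littermates with 1 library each. P-values of the binomial test set the difference between these 2 libraries against read counting noise alone and hold no spread between animals. The exact binomial test used sizes scaled by TMM (edgeR 4.0.16, R 4.3.3), at least 10 summed counts and a prior count of 0.5 for log2 ratios. The prior was the same in both pups and not scaled to depth. Tested on simulated data over 354 genes for pup 2 against pup 1, it called 2 of 159 unchanged genes, 37 of 50 genes changed 2-fold and 45 of 50 changed 4-fold. The simulation drew read counting noise alone, the noise that the test assumes, and mixed genes of all levels. It therefore gives no error rate under spread between animals and no power at the members' low counts. Alternatives were DESeq2 1.42.0 size factors, total-count scaling, other minimums, both strands, edgeR's exact test and leaving out a pup. Intervals and the limit of 3 counts cover counting error, since reads without molecular identifiers are not independent molecules. Placement allowed 10 bases at an intron end.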

Additional observations from a re-analysis of the deposited data

How the results depend on the processing

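The summed level of the members, 47.99 CPM, was 46.5 CPM with counts of both strands, 44.5 CPM without the most abundant member and 101.0 CPM with Mir143 left out of the totals; each pup alone gave 47.9 to 48.1 CPM. The 7 detected members became 55 with 1 count in both pups as the rule and 0 with 10 CPM, and each pup alone gave 9 to 10. Members with a count, 118 in all, were 72 and 101 in a pup alone and 103.4 with pup 1 thinned to the depth of pup 2. Between the pups 0 members passed the test, but 1 of 31, Mir6983, with a minimum of 5 counts (116 of 431 genes) and 1 of 118, Mir6983, with no minimum (118 of 668 genes); it passed in neither case in edgeR's exact test, an alternative chosen after seeing the data. Members at both intron ends were 18, 15 within 5 bases, 32 within 20 bases and 18 with protein-coding transcripts alone. The log2 ratio of Mir6945 turned from -0.08 to 0.00995 with a prior count of 2; the cause was not tested. Of the other alternatives to single-gene log2 ratios, 35 of 35 kept the direction and stayed short of the threshold. Leaving out a pup gives no value for the ratios. No paired analysis was possible because there is 1 group. Depth limits the rest: all but 9 of the 118 members with a count had fewer than 10 over both pups and were not in the between-pup test.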
